A study of Mus musculus with 21 samples.

Results

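Expression of 8 enzymes of cholesterol synthesis was followed in mouse liver across 2 genotypes and 3 days. The enzymes were Hmgcs1, Idi1, Fdps, Fdft1, Sqle, Lss, Cyp51 and Dhcr7. They were chosen by gene symbol as targets of the sterol-sensing transcription factor SREBP2, with earlier results of these data known. They made up 8 of the 12393 genes that the array annotation named, and 20 of its 22690 probe sets. All 8 passed the filter on low values, a log2 signal above 4 in at least 3 arrays.

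Livers came from 9-month-old male Mdr2-/- mice (KO) and from control mice. Every mouse underwent removal of 30% of the liver. The day 0 sample was the lobe removed at surgery, and the day 2 and day 6 samples were taken from mice killed on those days. The strain label was FVB129P2 for KO and FVB129P2/FVBNJ for control, so genotype and strain background cannot be told apart. The KO group had 6 samples on day 0 and 3 on each later day, and the control group had 3 samples on every day. Of the 12 mice, 9 gave both a day 0 and a later sample. No unoperated or sham-operated group was analysed here, so time and surgery cannot be told apart. Each sample was total RNA on its own Affymetrix array, and signals are given on the deposited log2 scale, on which a difference of 1 is a doubling. The number of arrays limits the precision.

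Hepatocytes make cholesterol from acetyl-CoA through mevalonate, isoprenoid diphosphates, squalene and lanosterol. SREBP2 is held in the endoplasmic reticulum while sterols are plentiful and is released to the nucleus when they fall, where it activates most genes of the route together. Mdr2, also called Abcb4, carries phospholipid into bile, and mice that lack it develop chronic bile duct injury, fibrosis and later liver tumours.

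Array medians lay between 3.8 and 4.1. The probe set of Abcb4 read 7.25 to 8.96 in the 12 KO samples and 9.23 to 10.33 in the 9 control samples, with no overlap. Whether its probes lie in the deleted part was not given in the sources used here. Hepatocyte markers averaged 13.67 to 13.95 in KO and 13.76 to 13.86 in control on day 0, and none of the 10 on the array passed the test between genotypes on day 0 or day 6, while 1 was higher in KO on day 2. A Gapdh 3' signal over 1 log2 unit above the 5' signal, a sign of RNA degradation, was seen on 3 arrays: KO day 0 mouse 337 (2.03), control day 2 mouse 263 (1.58) and control day 2 mouse 265 (9.5).

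Promoter windows of RefSeq genes on GRCm38.p6, each 250 bases before to 50 bases after an annotated start site, were available for Hmgcs1, Idi1, Lss, Cyp51 and Dhcr7. Those of Hmgcs1 and Idi1 are shown because both genes differed between genotypes on day 0, and that of Cyp51 because its signal tracked Idi1 most closely within groups. Capitals mark matches, on either strand, to TCACNCCA or TCACCNCA (forms of the sterol regulatory element), CCAAT (the NF-Y box) and GGGCGG (the GC box bound by Sp1). TCACCNCA was added after the sequences were seen, and any sequence TCACCCCA matches both sterol forms. The Hmgcs1 window lay at chr13:119690101-119690400 on the plus strand, the Idi1 window at chr13:8885356-8885655 on the plus strand and the Cyp51 window at chr5:4104648-4104947 on the minus strand, and each covers the 5' end of its gene.
Hmgcs1: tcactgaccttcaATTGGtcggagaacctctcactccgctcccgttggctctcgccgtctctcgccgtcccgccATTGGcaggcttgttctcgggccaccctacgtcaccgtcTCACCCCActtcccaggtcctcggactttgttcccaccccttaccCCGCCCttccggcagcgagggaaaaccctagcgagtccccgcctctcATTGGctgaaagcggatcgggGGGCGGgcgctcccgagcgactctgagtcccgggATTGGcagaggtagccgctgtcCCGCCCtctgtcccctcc
Idi1: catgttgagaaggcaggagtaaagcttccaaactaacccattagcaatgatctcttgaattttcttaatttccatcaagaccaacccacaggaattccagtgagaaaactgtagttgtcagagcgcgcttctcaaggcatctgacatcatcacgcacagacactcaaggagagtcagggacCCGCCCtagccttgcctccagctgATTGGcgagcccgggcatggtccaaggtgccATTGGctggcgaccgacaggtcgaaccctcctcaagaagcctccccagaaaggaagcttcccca
Cyp51: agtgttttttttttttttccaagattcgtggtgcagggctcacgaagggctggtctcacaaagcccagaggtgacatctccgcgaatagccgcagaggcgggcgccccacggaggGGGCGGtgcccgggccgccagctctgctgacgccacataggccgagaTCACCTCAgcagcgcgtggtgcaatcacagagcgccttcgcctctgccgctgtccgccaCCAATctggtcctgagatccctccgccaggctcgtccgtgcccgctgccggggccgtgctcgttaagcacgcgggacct

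The Hmgcs1 window held TCACCCCA beginning 137 bases before the start site, together with 4 CCAAT boxes and 3 GC boxes. The Cyp51 window held TCACCTCA beginning 88 bases before the start site, with 1 CCAAT box and 1 GC box. The Idi1 window held 2 CCAAT boxes, 1 GC box and neither sterol form. Over all 32851 windows of the RefSeq table, 4.36% held TCACNCCA, 4.42% held TCACCNCA, 37.4% held CCAAT and 35.7% held GGGCGG. Lss (1 window) had 1 CCAAT box and 2 GC boxes. Of the 3 windows of Dhcr7, the third had 2 CCAAT boxes and 3 GC boxes, the first had 1 GC box and the second had no match. A match describes the sequence and is no evidence of binding.

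**Figure D1:**
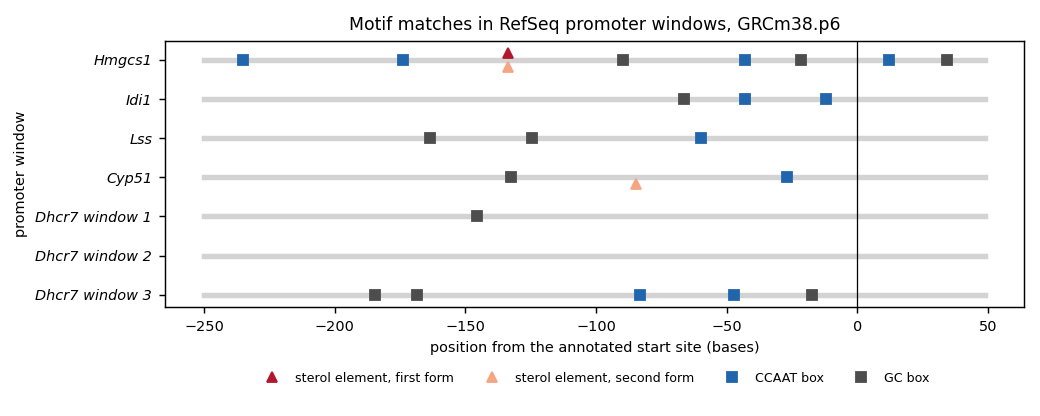
Motif matches (symbols) in the 7 promoter windows of 5 enzymes, by position in bases from the annotated start site; grey bars span each window. The Hmgcs1 window holds both forms of the sterol element at 1 position, the Cyp51 window holds the second form, and the other 5 windows hold neither.

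On day 0, in the lobe removed at surgery, KO livers carried more mRNA for 3 of the 8 enzymes than control livers. Sqle, which oxidises squalene, was 6.79-fold higher (95% interval 3.19 to 14.4). Hmgcs1, which makes the precursor of mevalonate, was 3.24-fold higher (1.78 to 5.89), and Idi1, which isomerises isopentenyl diphosphate, was 2.69-fold higher (1.49 to 4.88). No enzyme was lower. All 8 differences were positive, with a median of 1.02 log2 units against 0.018 over the 7320 genes tested. Among all genes, 6.79% were called higher, 2.87% lower and 9.66% in either direction at an adjusted p of 0.05. In bulk tissue, fewer cells of a type and less RNA per cell cannot be told apart.

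Sqle read 7.15 at the lowest, 7.73 at the median and 8.12 at the highest in the 6 KO day 0 livers, against 5.62, 5.83 and 3.37 in control mice 263, 265 and 303. All KO samples lay above all control samples, and control mouse 303 stood far below the other control mice, under the log2 value of 4 used as the filter. The difference was 2.76 ± 0.52 (SE), with an adjusted p of 0.001663. It remained called under all 31 alternatives tried, and without control mouse 303 it was 1.98 (adjusted p = 0.02086).

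Hmgcs1 read 12.14, 12.5 and 13.0 (lowest, median and highest) in the KO day 0 livers, against 11.45, 10.84 and 10.31 in control mice 263, 265 and 303. The groups did not overlap. The difference was 1.70 ± 0.41 (SE, adjusted p = 0.01225). All 4 probe sets of Hmgcs1 were called when each was tested on its own, with differences from 1.69 to 2.02. The call was lost without control mouse 265, where the difference was 1.68 (adjusted p = 0.0565), and without control mouse 303, where it was 1.42 (adjusted p = 0.09666).

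Idi1 read 10.42, 11.23 and 11.65 (lowest, median and highest) in the KO day 0 livers, against 10.03, 10.07 and 9.03 in control mice 263, 265 and 303. The lowest KO sample, mouse 258, lay above the highest control. The difference was 1.43 ± 0.41 (SE, adjusted p = 0.03211). Tested on its own, the probe set used passed (adjusted p = 0.03862) and the second did not (1.35, adjusted p = 0.05266, both by limma). The call was near the threshold and held under 23 of 31 alternatives, with that by single probe sets counted as held. It was lost without KO mouse 250, 254 or 332, without any of the 3 control mice, without the filter and with arrays centred on their medians, with differences from 1.09 to 1.61 and adjusted p from 0.0527 to 0.2086.

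**Figure D2:**
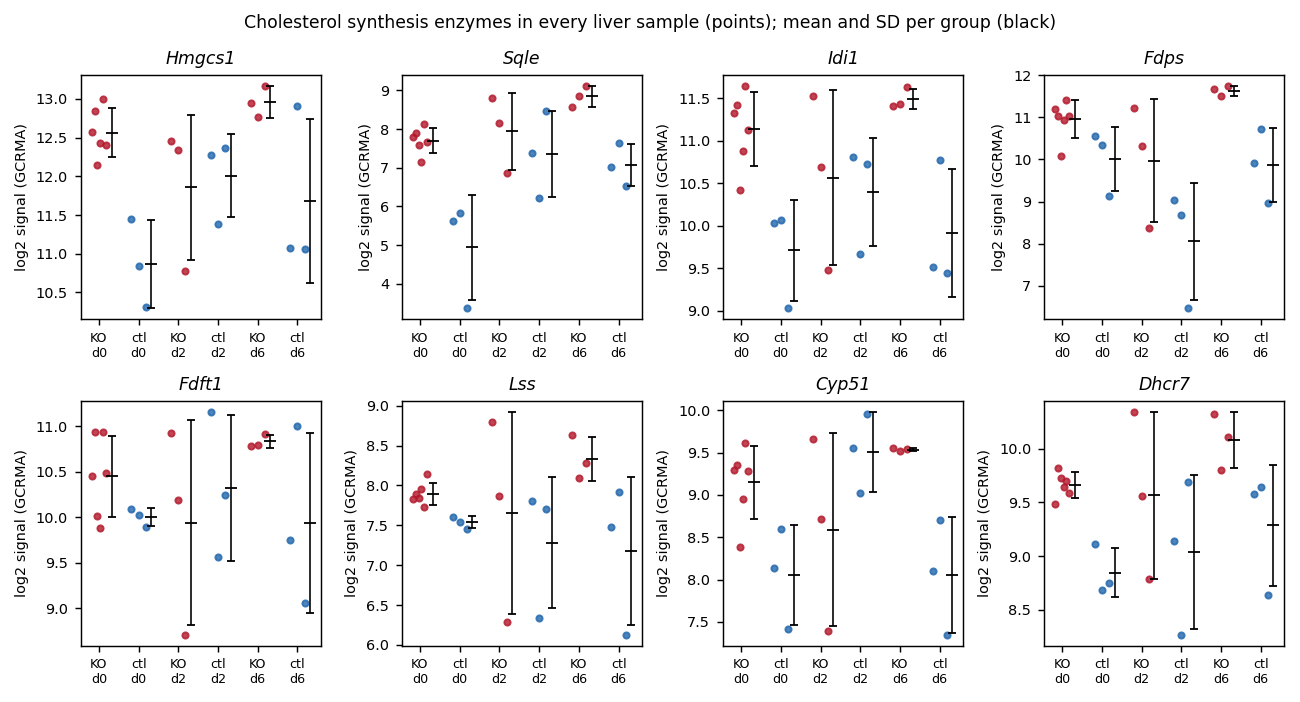
Log2 signal of the 8 enzymes in each of the 21 liver samples (red KO, blue control), by genotype and day (d0, d2, d6; ctl is control); black marks give the group mean and SD. KO day 0 samples lie above all control day 0 samples for Hmgcs1, Idi1, Sqle, Lss and Dhcr7, and the SD of KO day 6 samples is 0.274 or less for each enzyme.

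The other 5 enzymes did not pass the test on day 0. Cyp51, which removes a methyl group from lanosterol, differed by 1.10 ± 0.40 (SE, adjusted p = 0.09998). Dhcr7, which catalyses the last step to cholesterol, differed by 0.81 ± 0.31 (adjusted p = 0.1136). Its values were 9.48 to 9.82 in KO livers and 8.68 to 9.11 in control livers, without overlap. Both enzymes were called when only the day 0 groups entered the fit, with adjusted p of 0.03828 for Cyp51 and 0.003848 for Dhcr7, and 14.4% of all genes were called in that fit. Cyp51 was also called without KO day 2 mouse 258 (adjusted p = 0.04663).

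Fdps, which builds farnesyl diphosphate, differed by 0.94 ± 0.58 on day 0 (SE, adjusted p = 0.3665), with 10.09 to 11.4 in KO livers and 9.13 to 10.55 in control livers. Fdft1, which joins farnesyl units into squalene, differed by 0.45 ± 0.44 (adjusted p = 0.6239). Lss, which cyclises oxidised squalene to lanosterol, differed by 0.36 ± 0.44 (adjusted p = 0.7044). The Lss groups did not overlap on the probe set used, but its second probe set gave a difference of -0.40, so its direction depends on the probe set. For the other enzymes with a second probe set above the filter, both sets gave the same sign on day 0. Groups did not overlap, with KO higher, for 5 of the 8 enzymes (Hmgcs1, Idi1, Sqle, Lss and Dhcr7), against 11.6% of all genes.

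Markers of stellate cells and fibroblasts moved with genotype on day 0. Their mean over 8 genes was 6.46 to 7.93 in KO and 4.59 to 4.89 in control, and 5 of the 6 tested were higher in KO. Des and Lrat stayed at or under 4 on all arrays. Of the same 6, 3 were higher in KO on day 2 and 1 on day 6. Bile duct markers averaged 3.17 to 4.32 in KO and 3.15 to 3.22 in control, and neither of the 2 tested passed. Of 3 pancreas markers on the array only Cela1 was tested, and it was lower in KO by -2.325, with list means of 4.01 to 4.33 in KO and 4.92 to 4.98 in control. It was lower in KO on day 6 as well (-2.08), and Cpa1 and Ctrb1 stayed at or under 4 on all arrays. The part of these cells in the enzyme differences was not tested. With the 3 arrays of high Gapdh difference left out, the day 0 calls were again Sqle, Hmgcs1 and Idi1, and 12.1% of all genes were called.

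On day 2, none of the 8 enzymes differed between KO and control by limma at an adjusted p of 0.05, against 5.71% of all genes. At an unadjusted p of 0.05 there was 1, Fdps, against 24.4% of all genes. Differences ran from -0.92 for Cyp51 to 1.92 for Fdps, with a median of 0.267 against -0.033 over all genes. Groups overlapped for all 8 enzymes, whereas 8.28% of all genes lay without overlap and higher in KO.

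Fdps on day 2 read 11.22, 10.32 and 8.38 in KO mice 250, 254 and 258, against 9.03, 8.67 and 6.47 in control mice 263, 264 and 265. The lowest KO liver overlapped the control livers, and the lowest control array was the one with the Gapdh difference of 9.5. The difference was 1.92 ± 0.67 (SE, adjusted p = 0.09232). Without KO mouse 258 it was 2.71 and passed (adjusted p = 0.04271). Of the 31 alternatives, this was the only 1 that passed, and across them the difference ran from 0.93 to 2.71. Cyp51 on the same day read 9.66, 8.72 and 7.39 in those KO mice and 9.55, 9.02 and 9.96 in those control mice, with an adjusted p of 0.2324. The 95% intervals of the day 2 differences spanned 0 for every enzyme except Fdps, and ran from -1.15 to 0.84 for Hmgcs1 and from -0.68 to 1.84 for Sqle. The probe sets of Hmgcs1 disagreed in sign, with differences from -0.32 to 0.99.

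On day 6, none of the 8 enzymes passed either, against 1.73% of all genes. All 8 differences were positive, from 0.79 for Dhcr7 to 1.78 for Sqle, with a median of 1.38 against -0.027 over all genes. By limma, 7 of 8 reached an unadjusted p of 0.05, against 12.9% of all genes, and the smallest adjusted p was 0.1146, for Idi1. Groups did not overlap, with KO higher, for 6 of 8 enzymes against 8.63% of all genes. The exceptions, on the probe sets used, were Hmgcs1 and Fdft1. On the second probe set of Fdft1 the groups did not overlap, at 10.3 to 10.47 in KO and 8.54 to 10.16 in control. Lss again depended on the probe set, with a difference of 1.16 (unadjusted p = 0.03335, limma) on the one used and 0.14 on its second. Cyp51 differed by 1.48 on the probe set used and by 1.05 on its second. On that second set the groups overlapped, at 7.45 to 7.64 in KO and 5.46 to 7.48 in control.

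Sqle on day 6 read 8.58, 8.85 and 9.12 in KO mice 312, 332 and 337, against 7.03, 6.54 and 7.63 in control mice 303, 392 and 393. The difference of 1.78 ± 0.60 (SE) had an adjusted p of 0.1676. Idi1 read 11.41, 11.44 and 11.63 in these KO mice and 9.52, 9.45 and 10.78 in these control mice, a difference of 1.58 ± 0.47. Control mouse 393 carried the highest control value of all 8 enzymes on day 6. Hmgcs1 read 12.95, 12.76 and 13.17 in KO livers, against 11.08, 11.06 and 12.91 in control livers. On this probe set mouse 393 fell among the KO values. Each other probe set of Hmgcs1 placed mouse 393 below all KO day 6 livers. The values were 12.65 against 12.75 to 13.19, 12.76 against 12.78 to 13.17, and 10.75 against 11.1 to 12.14. Without mouse 393 the Hmgcs1 difference was 1.89 and passed (adjusted p = 0.04125), whereas with it the difference was 1.28 (adjusted p = 0.2315). No other of the 31 alternatives gave a call for Hmgcs1 on day 6.

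**Figure D3:**
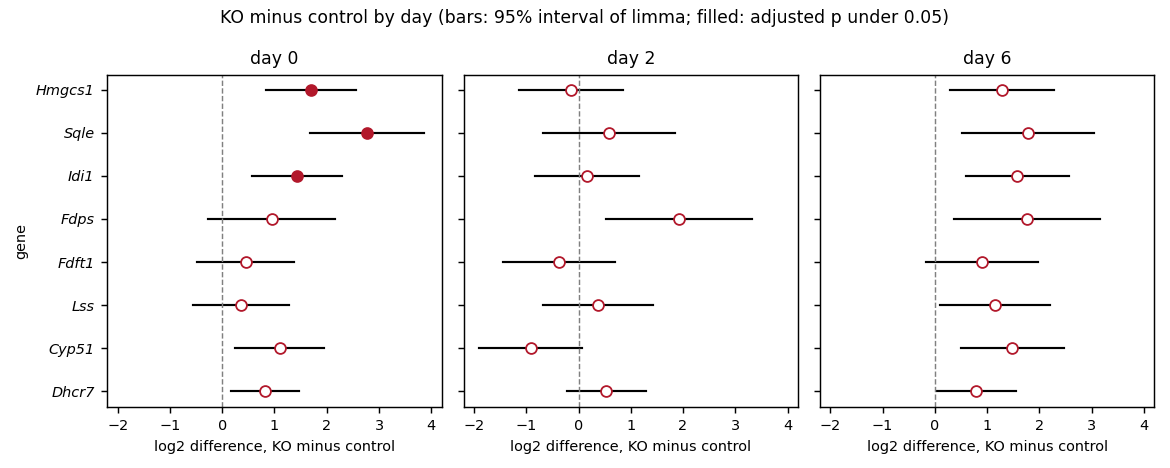
Log2 difference, KO minus control, for each enzyme on days 0, 2 and 6, with the 95% interval of the limma fit, not adjusted for the number of genes; filled points passed an adjusted p of 0.05. The filled points are Hmgcs1, Sqle and Idi1 on day 0, and all day 6 differences lie above 0.

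Among the 8 enzymes the SD on day 6 ran from 0.015 to 0.274 in KO livers and from 0.546 to 1.062 in control livers. The KO spread was smallest for Cyp51 and Fdft1 and largest for Lss (0.274), Sqle (0.27) and Dhcr7 (0.262). Cyp51 read 9.55, 9.52 and 9.54 in KO mice 312, 332 and 337, against 8.10, 7.35 and 8.71 in control mice 303, 392 and 393. Fdft1, the enzyme that commits farnesyl diphosphate to sterols, averaged 10.84 ± 0.072 in KO and 9.94 ± 0.989 in control on that day (SD, n = 3 each). The difference in spread was not tested. The KO day 6 mean was the highest of the 6 groups for 8 of 8 enzymes, and the KO day 0 mean was second for 6 of them. The control day 0 mean was the lowest for Hmgcs1, Sqle, Idi1 and Dhcr7 and tied with control day 6 for Cyp51, control day 6 was the lowest for Fdft1 and Lss, and control day 2 was the lowest for Fdps. Of 40 pairs of groups next to each other in these orders, the sample ranges overlapped in 38, so most neighbouring ranks did not differ beyond their spread. In 2 steps the ranges did not overlap, and neither step passed the test. For Fdps this was KO day 6 over KO day 0 (11.63 ± 0.118 and 10.95 ± 0.451, adjusted p = 0.9999 by limma). For Sqle it was control day 6 over control day 0 (7.07 ± 0.546 and 4.94 ± 1.364, adjusted p = 0.06352 by limma).

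After resection in control mice, Sqle was the 1 enzyme called on day 2 against day 0, at 5.34-fold higher, whereas 9.51% of all genes were called, 5.23% higher and 4.28% lower. Sqle read 7.39, 6.22 and 8.46 in control day 2 mice 263, 264 and 265, against 5.62, 5.83 and 3.37 in control day 0 mice 263, 265 and 303. The lowest day 2 value lay above the highest day 0 value. The difference was 2.42 ± 0.60 (SE, adjusted p = 0.02007). The call was lost without day 2 mouse 265 (1.86, adjusted p = 0.1014), without day 0 mouse 303 (1.63, adjusted p = 0.1003), and with the 3 arrays of high Gapdh difference left out (1.28, adjusted p = 0.5132), where the 1 control day 2 sample remaining was assumed to vary like the other groups. It was also lost when only these groups entered the fit (adjusted p = 0.234). Calls over all genes were fewer too, 1.07% without the 3 arrays and 0.369% with only these groups. Hepatocyte markers averaged 13.33 to 13.64 on day 2 and 13.76 to 13.86 on day 0 in control livers, without overlap, though none of 10 passed. Stellate and fibroblast markers averaged 5.04 to 6.11 and 4.59 to 4.89 on these days, with 1 of 6 higher, and Cela1 was lower by -1.87. The part of these markers in the Sqle difference was not tested.

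Cyp51 and Fdps went opposite ways in the control livers on day 2 without passing the test. Cyp51 read 9.55, 9.02 and 9.96 on day 2, against 8.14, 8.60 and 7.42 on day 0 in the mice just named, a difference of 1.46 ± 0.47 (SE, adjusted p = 0.0558). Fdps read 9.03, 8.67 and 6.47 on day 2, against 10.55, 10.33 and 9.13 on day 0, a difference of -1.95 ± 0.67 (adjusted p = 0.07177). Neither gene's groups overlapped on the probe set used. Without overlap, 2 enzymes were higher (Sqle and Cyp51) against 15.2% of all genes, and 1 was lower (Fdps) against 10.5%. On the second probe set of Cyp51 the difference was 0.77 and the groups overlapped. With the mouse as a replicate block, a model in which day 0 and later samples of an animal are paired, 3 enzymes passed: Sqle, Cyp51 (1.45 with a random block, adjusted p = 0.0377) and Fdps (-2.0, adjusted p = 0.04657). In that fit 12.6% of all genes passed. In the mice with both days, Fdps fell by 1.52 in mouse 263 and by 3.86 in mouse 265, while the 7 other enzymes all had higher values on day 2 in both animals. Both day 2 arrays of these mice were among the 3 with a high Gapdh difference. In control day 2 mouse 264, whose Gapdh difference was 0.07, Fdps lay below all control day 0 values. So did Fdft1 (9.56), Lss (6.34) and Dhcr7 (8.27) in that liver, while Hmgcs1, Sqle, Idi1 and Cyp51 did not. The part of RNA degradation in the Fdps difference was not tested.

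Hmgcs1 differed by 1.14 ± 0.47 between day 2 and day 0 in control livers (SE, adjusted p = 0.13). Its probe sets disagreed in size, with differences from 0.21 to 1.39. Idi1, Fdft1 and Dhcr7 differed by 0.69, 0.32 and 0.19, and Lss by -0.25. By limma, 4 of 8 enzymes reached an unadjusted p of 0.05, 3 higher and 1 lower, against 27.1% of all genes.

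On day 6 against day 0 in control livers, none of the 8 enzymes passed, against 2.86% of all genes. Sqle came nearest, at 7.03, 6.54 and 7.63 in day 6 mice 303, 392 and 393, against the day 0 values above, a difference of 2.13 ± 0.60 (SE, adjusted p = 0.06352). The groups did not overlap, as for 12.2% of all genes. Without day 0 mouse 303 it was 1.34 (adjusted p = 0.2765). Sqle passed with the mouse as a random replicate block (2.22, adjusted p = 0.04068), where 3.29% of all genes did. It was the only enzyme with an unadjusted p under 0.05 in the limma fit, against 16.3% of all genes, and the difference of Cyp51 was 0.0 ± 0.47. Between day 6 and day 2, none passed against 1.94% of all genes. Fdps (1.81 ± 0.67) and Cyp51 (-1.46 ± 0.47, adjusted p = 0.09304) reached an unadjusted p of 0.05, as did 21.7% of all genes, and Cyp51 passed without control day 2 mouse 264 (adjusted p = 0.04301). Cyp51 was the 1 enzyme lower without overlap, against 9.33% of all genes. Its second probe set gave -0.85, with overlap. These comparisons share the control day 0 or day 2 samples, as do the genotype comparisons above.

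In KO mice, resection moved no enzyme past the test. On day 2 against day 0, 0 of 8 were called and 0 of all genes were (0.0%), and 0 enzymes reached an unadjusted p of 0.05 by limma, against 6.0% of all genes. The median difference was -0.534, and 7 of 8 were negative. KO mouse 258 had the lowest day 2 value of its group for all 8 enzymes, and without it Cyp51 (0.04), Dhcr7 (0.29), Fdft1 (0.11) and Lss (0.44) turned positive, none past the test. Hmgcs1 read 12.45, 12.34 and 10.78 in KO day 2 mice 250, 254 and 258, against 12.14, 12.5 and 13.0 (lowest, median and highest) on day 0.

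On day 6 against day 0 in KO livers, all 8 differences were positive, with a median of 0.407 against -0.05 over all genes, and none passed, against 0.137% of all genes. Sqle, at 1.15 ± 0.52 (SE, adjusted p = 0.8621), was the 1 enzyme with an unadjusted p under 0.05 by limma, against 5.44% of all genes. Sqle and Fdps were higher without overlap, as were 1.67% of all genes. On day 6 against day 2, all 8 were again positive, with a median of 0.92, and none passed, against 0.123% of all genes. Hmgcs1 (1.10 ± 0.47) and Fdps (1.66 ± 0.67) reached an unadjusted p of 0.05, as did 4.99% of all genes, and were higher without overlap, as were 5.97% of all genes.

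Paired samples showed how far single animals differed. From day 0 to day 2 in KO, 7 of 8 enzymes had higher values in mouse 250 (median change 0.42), 1 of 8 in mouse 254 (median -0.57) and 0 of 8 in mouse 258 (median -1.15). From day 0 to day 6 in KO, 8 of 8 had higher values in mice 312 and 337 (medians 0.68 and 0.51) and 4 of 8 in mouse 332 (median 0.0). In control, 7 of 8 had higher values in mice 263 and 265 on day 2 (medians 0.805 and 0.835) and in mouse 303 on day 6 (median 0.725). The exceptions were Fdps in mice 263 and 265 and Fdft1 (-0.14) in mouse 303. Control mice 263 and 265 on day 2 and mouse 303 on day 6 went the same way for most enzymes, and the KO mice did not on day 2. Both paired control day 2 arrays had a high Gapdh difference (1.58 and 9.5). Control day 2 mouse 264, with no day 0 sample to pair, had the lowest value of its group for 7 of 8 enzymes.

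**Figure D4:**
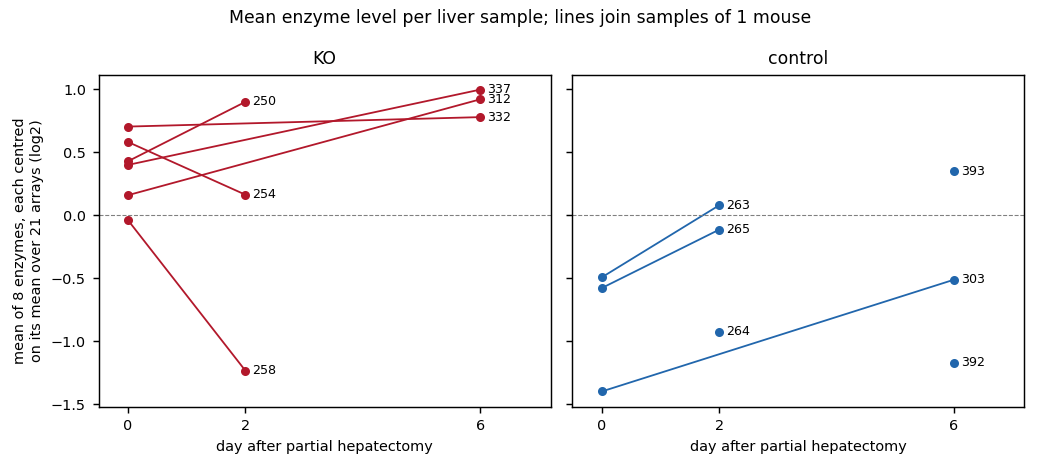
Mean log2 signal of the 8 enzymes, each centred on its mean over the 21 arrays, by day after partial hepatectomy, for KO (left) and control (right); lines join samples of 1 mouse and numbers name the mice. KO day 2 samples range from -1.232 in mouse 258 to 0.899 in mouse 250, and KO day 6 samples lie between 0.778 and 0.996.

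The change from day 0 to day 2 in KO minus that in control was tested directly. None of the 8 enzymes passed, and neither did any other gene (0.0%). By limma, 3 of 8 enzymes reached an unadjusted p of 0.05, against 14.6% of all genes, all lower in KO: Cyp51 by -2.02 ± 0.62 (SE, adjusted p = 0.1848), Sqle by -2.18 ± 0.79 (adjusted p = 0.2367) and Hmgcs1 by -1.85 ± 0.63 (adjusted p = 0.208). The probe sets of Hmgcs1 gave values from -2.11 to -1.03, and the set at -1.03 did not reach an unadjusted p of 0.05 by limma. The 95% interval for Sqle ran from -3.85 to -0.52. The Sqle value was -1.06 without the 3 arrays of high Gapdh difference and -1.4 without control day 0 mouse 303. Without those 3 arrays Cyp51 was -1.5 and Hmgcs1 -1.26, and without KO day 2 mouse 258 they were -1.42 and -1.31. For the change to day 6, none passed, against 0.164% of all genes, and 0 reached an unadjusted p of 0.05 by limma, against 5.36%. The 95% interval for Sqle was then -2.64 to 0.68.

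The 8 enzymes varied together from liver to liver. Over the 21 arrays the median of their 28 pairwise Pearson correlations was 0.752, from 0.314 (Fdps with Cyp51) to 0.942 (Hmgcs1 with Idi1). With group means removed the median was 0.735, from 0.299 to 0.94, and the closest pair was Idi1 with Cyp51. Idi1 followed the mean of the other 7 most closely (r = 0.963), then Hmgcs1 (0.919) and Dhcr7 (0.858), and Fdps followed it least (0.56). The arrays share genotype, day, animal and normalization, and these values are descriptions only.

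Single livers stood apart from their groups. The mean of the 8 enzymes, each centred over all arrays, was lowest in KO on day 2 in mouse 258 (-1.232), and in the control group in mouse 303 on day 0 (-1.397) and mouse 392 on day 6 (-1.168). Control mouse 393 reached 0.348 on day 6, near the KO day 0 median of 0.414. Mouse 303 had the lowest control day 0 value for 7 of 8 enzymes, and mouse 392 the lowest control day 6 value for 8 of 8. In KO livers the mean ± SD was 0.372 ± 0.273 on day 0 (n = 6), -0.057 ± 1.082 on day 2 and 0.898 ± 0.111 on day 6 (n = 3 each). In control livers it was -0.822 ± 0.5 on day 0, -0.32 ± 0.532 on day 2 and -0.444 ± 0.76 on day 6 (n = 3 each).

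Among all other genes tested, the 10 most like the mean of the 8 enzymes over the 21 arrays began with 5 enzymes of the same route. These were Msmo1 (r = 0.883), which works after Cyp51, Nsdhl (0.857), which takes part in removing methyl groups, Mvd (0.826), Pmvk (0.803) and Mvk (0.79), the last 3 of which turn mevalonate into isopentenyl diphosphate. The other 5 were Arhgef16 (0.787), Pls1 (0.776), Aldoc (0.76), Wfdc15b (0.756) and Gas2 (0.731). Pls1, an actin-bundling protein, was higher in KO by 3.85 on day 0 (adjusted p = 2.019e-05) and passed on days 2 and 6 as well. Arhgef16 passed on day 0, Wfdc15b on days 0 and 6 and Aldoc on day 6, each higher in KO. Gas2 and the first 5 genes passed no genotype comparison. Msmo1 shared the pattern of single animals: it read 12.03, 10.77 and 9.72 in KO day 2 mice 250, 254 and 258, against 11.12, 10.02 and 11.20 in control day 2 mice 263, 264 and 265. The lowest KO value was again that of mouse 258. Likeness was not general among related genes. Over 15 further genes of sterol synthesis and its regulation, with Msmo1 among them, the median r was 0.379. It ran from -0.293 (Scap) to 0.883, and the enzyme Ebp reached 0.066.

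**Figure D5:**
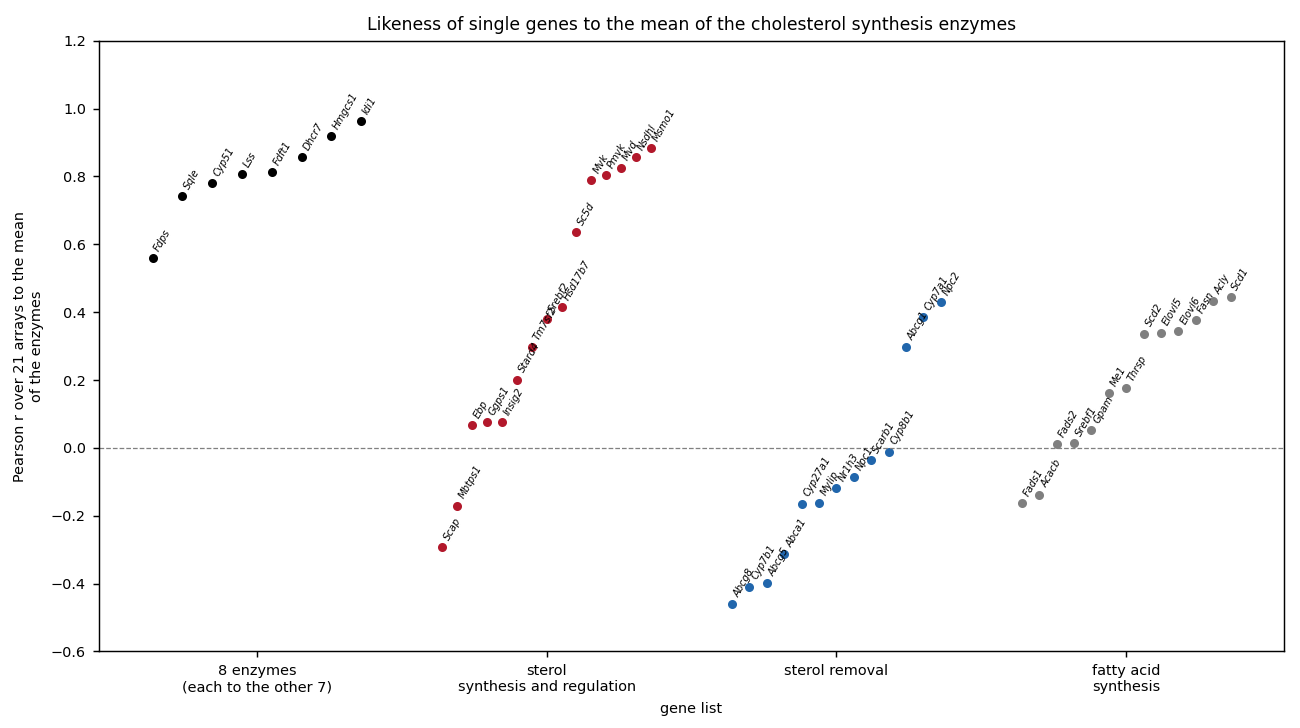
Pearson r over the 21 arrays of single genes (points) to the mean of the 8 enzymes, by gene list; for each of the 8 the mean is that of the other 7. The 8 enzymes lie between 0.56 and 0.963, and Msmo1, Nsdhl, Mvd, Pmvk and Mvk reach 0.79 to 0.883. The 15 genes of their list run from -0.293 to 0.883, with a median of 0.379.

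Of 15 further genes of sterol synthesis and its regulation, none passed the test between KO and control on day 0 by limma, 1 reached an unadjusted p of 0.05 (22.3% of all genes did), and the median difference was -0.062. Insig2, an anchor that retains the SREBP escort, had the smallest p, with a difference of 0.72 (adjusted p = 0.1876). Mvd differed by 1.04 and Nsdhl by 1.02, with adjusted p of 0.2449 and 0.2369. Of the 15 differences, 7 were positive. None of the genes was higher in KO without overlap, against 11.6% of all genes, and 2 were lower (13.3%), against 8.16%. Scap, that escort, read 8.68 to 9.5 in KO livers and 9.66 to 9.93 in control livers. The enzyme Ebp read 10.58 to 11.4 and 11.43 to 11.49. Srebf2, the gene of SREBP2 itself, differed by 0.28 ± 0.23 (SE, adjusted p = 0.5312). On day 6 none passed, against 1.73% of all genes. An unadjusted p of 0.05 by limma was reached by 3, against 12.9% of all genes, and the median was 0.597 against -0.027. In control livers on day 2 against day 0, Insig2 rose by 1.45 ± 0.37 (adjusted p = 0.02123). It was the only gene of the 15 that passed, against 9.51% of all genes. Without the 3 arrays of high Gapdh difference it was 1.35 (adjusted p = 0.2381).

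Genes that remove sterols gave 1 higher and 3 lower calls among 13 tested on day 0, against 6.79% higher and 2.87% lower of all genes. Abcg8, a subunit of the canalicular sterol exporter, read 5.35 to 6.8 in the 6 KO livers and 8.07 to 8.65 in the 3 control livers, without overlap. It was lower in KO by -2.21 ± 0.41 (SE, adjusted p = 0.001418), and its partner Abcg5 by -1.05 ± 0.27 (adjusted p = 0.01615). Cyp7b1, an oxysterol hydroxylase of bile acid synthesis, was lower by -1.33 ± 0.41 (adjusted p = 0.04457), and Npc2, a lysosomal sterol carrier, was higher by 0.81 ± 0.21 (adjusted p = 0.01983). Without the 3 arrays of high Gapdh difference Cyp7b1 no longer passed (adjusted p = 0.06603), and the other 3 did. The median over the 13 was -0.183. In control livers on day 2, 3 of them were lower than on day 0: Abcg5 by -1.13, the sterol sensor Nr1h3 by -0.95 and Cyp27a1, a sterol hydroxylase, by -0.95, against 4.28% of all genes. Of the 3 day 2 arrays behind these values, 2 had a high Gapdh difference. Without the 3 arrays of high Gapdh difference the values were -1.29 for Abcg5, -0.27 for Nr1h3 and -0.49 for Cyp27a1, and none passed (adjusted p 0.1945, 0.8176 and 0.5617 by limma, with unadjusted p of 0.01132 for Abcg5).

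Genes of fatty acid synthesis, which depend more on SREBP1, gave no call among 13 tested on day 0, against 9.66% of all genes. Of the 13, 3 reached an unadjusted p of 0.05 by limma, against 22.3% of all genes. Their median was -0.465 against 0.018 over all genes. Thrsp, a lipogenic regulator, differed by -2.99 (adjusted p = 0.07532), and passed without the 3 arrays of high Gapdh difference (-3.24, adjusted p = 0.04317). In control livers on day 2 against day 0, 3 of the 13 were lower: Thrsp by -5.65, fatty acid synthase Fasn by -2.47 and the elongase Elovl6 by -2.02, against 4.28% of all genes. Without the 3 arrays of high Gapdh difference, Thrsp passed (-7.44, adjusted p = 0.0373), and Fasn (-2.38, adjusted p = 0.2158) and Elovl6 (-2.54, adjusted p = 0.2007) did not. In the same comparison the 8 cholesterol enzymes had a median of 0.507 and the 13 fatty acid genes -1.88, against 0.077 over all genes. The 15 further sterol genes had a median of -0.41. With those 3 arrays left out, a single control day 2 sample remained. Idi1 (-0.04), Fdft1 (-0.44), Dhcr7 (-0.58), Lss (-1.2) and Fdps were then negative, and Hmgcs1, Sqle and Cyp51 were positive.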

How the data were processed

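Total RNA from each liver was hybridised to an Affymetrix mouse array after 3-prime IVT labelling, per the labels' protocols. The deposited log2 values were made with GCRMA, per the submitters' processing notes, and other steps are not stated in the labels. Their scale was read from their range, and they were not normalized again.

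Of 22690 probe sets, 20380 with 1 gene symbol were used. Where a gene had several, the probe set of highest mean over all arrays was kept (12393 genes). Genes above log2 4 in at least 3 arrays were tested (7320). One limma 3.58.1 model (lmFit, eBayes, R 4.3.3) held all 6 groups, with 15 residual degrees of freedom. P-values are two-sided, adjusted by Benjamini-Hochberg over all genes tested, with a threshold of 0.05. Folds are powers of 2 of log2 differences. The model was tested on simulated data. Figures used matplotlib 3.10.9 in Python 3.11.15.

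The members and lists were chosen with earlier results of these data known. Named genes were all members, list genes that passed or up to 3 with the smallest p, and the 10 genes most correlated with the member mean. Levels beyond this rule (Srebf2, Msmo1, Scap, Ebp) were named after their values were seen. Acat2, Insig1, Mbtps2, Soat1, Soat2 and Nr1h2 were listed but not analysed here, and Acaca and Pnpla3 did not pass the filter.

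The labels give samples of 1 mouse the same number, which pairs them. In 9 pairs, deviations from group means correlated from -0.057 to 0.303, and 5 were above 0.1. The mouse was an alternative, as a block. Other alternatives were the filter, probe sets, normalization, variance model, samples in the fit, 3 arrays with a high Gapdh difference, and each array left out. Leaving out those 3 arrays was extended to the list genes after seeing the data. Samples of a group came from separate mice, so the spread is between animals.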

Additional observations from a re-analysis of the deposited data

Results flagged for a closer look

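Fdps in the KO day 0 sample of mouse 258 stood apart from its group. It read 10.09, while the other 5 KO day 0 livers lay between 10.93 and 11.4, and the gap to the nearest of them was 0.641 of the group's range. KO day 0 was the only group with enough samples for this check, and 8 enzymes were examined. Chance flags about 1 in 20 groups. The same mouse had the lowest value of its group for all 8 enzymes on day 2.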

How the results depend on the processing

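For KO against control on day 0, 3 enzymes were called, 5 when only the groups compared entered the fit, and 1 to 4 when arrays were left out singly. On day 2 and on day 6, leaving out single arrays gave 0 to 1 call. For control day 2 against day 0, the count of 1 became 3 with a replicate block (mouse random or fixed), 0 with only the groups compared, 0 without the 3 arrays of high Gapdh difference, and 0 to 3 when arrays were left out singly. For control day 6 against day 0, the count of 0 became 1 with the random replicate block, 1 without those 3 arrays, and 0 to 1 when arrays were left out. For control day 6 against day 2 it was 0 to 1 when arrays were left out. The replicate block changed no other count. Calls over all genes moved as well: for KO against control on day 0 they went to 1055 with only the groups compared, against 707. For control day 2 against day 0 they went to 27 with only the groups compared, 78 without the 3 arrays, 925 with the random block and 552 with the fixed block, against 696. For control day 6 against day 0 they went to 296 without the 3 arrays and 241 with the random block, against 209. Some differences that never passed turned sign. On day 0, Lss was -0.02 with the mean of its probe sets. On day 2, with that mean, Hmgcs1 was 0.11, Idi1 -0.04 and Lss -0.06, and without the 3 arrays Hmgcs1 was 0.47 and Fdft1 0.38. With single arrays left out on day 2, the difference was -0.46 to 0.38 for Hmgcs1, -0.32 to 0.71 for Idi1, -0.87 to 0.24 for Fdft1 and -0.20 to 1.05 for Lss. Over all 11 comparisons, 90 of 2792 alternative values turned sign, and none of them passed the test. Centring each array on its median moved the median KO minus control difference of all genes to -0.118 on day 0, -0.148 on day 2 and -0.207 on day 6, against 0.018, -0.033 and -0.027. The cause of these shifts was not tested. With 3 arrays in most groups, smaller differences may not have been detectable.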
